A study of Mus musculus with 4 samples.

Results

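The transcripts described here encode the cyclins and cyclin-dependent kinases that act in the G1 phase of the cell cycle, their substrate Rb1, and Cdk15, a kinase of a different branch of the family. All array probes that carry the name of 1 of these 10 genes (Ccnd1, Ccnd2, Ccnd3, Ccne1, Ccne2, Cdk2, Cdk4, Cdk6, Cdk15 and Rb1) were taken, which gave 14 of the 55681 probes and 23 of the 59305 spots that were not controls. The array names 36413 genes or transcripts in all. The measurement was made in C2C12 cells, a mouse myoblast line that grows as single cells and can fuse into myotubes. One condition, siFxr1, received an siRNA against Fxr1, which encodes an RNA-binding protein of the fragile X family, and the other, siControl, received a random siRNA of matching GC content. Both were bulk cultures of the same line, transfected with a lipid reagent, and the methods state that transfected cells were analysed at 48 hrs. Each condition was measured in 2 experiments, numbered 1 and 2 by the labels, which makes 4 arrays of 1 colour, and each experiment lay on its own slide. By the labels, the integrity of the RNA was scored 8 in the first siFxr1 sample and 9 in the remaining 3.

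In the textbook account of G1, mitogens induce the D cyclins, which activate Cdk4 and Cdk6, and these kinases begin the phosphorylation of the retinoblastoma protein, encoded by Rb1. Rb1 then releases E2F transcription factors, which induce the E cyclins, and cyclin E bound to Cdk2 completes the step into S phase. In myoblasts the same circuit stands between division and differentiation, since high cyclin D1 and Cdk4 activity blocks the muscle programme and hypophosphorylated Rb1 is needed for a lasting exit from the cycle.

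The 14 probes are oligonucleotides of 60 bases, with a GC content between 15% and 55%. The sequences of 4 of them, for Cdk15, Cdk4, Ccnd2 and Ccne1, are printed. Each holds at least 1 reading frame without a stop codon over its whole length, as do 10 of the 14 in all. The printed sequences are written 5′ to 3′ in the sense of the mRNA, in lower case throughout, with the positions the array gives on mm9. Exon and UTR annotation on that build was not used here. The probe of Cdk15 (A_55_P2167092) lies at chr1:59387782-59387841 on the plus strand, the innermost probe of Cdk4 (A_55_P2166639) at chr10:126503162-126503221 on the plus strand, the probe of Ccnd2 (A_52_P53906) at chr6:127098696-127098755 on the minus strand and the upstream probe of Ccne1 (A_66_P125327) at chr7:38885574-38885633 on the minus strand.
Cdk15 A_55_P2167092: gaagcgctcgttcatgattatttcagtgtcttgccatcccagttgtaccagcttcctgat
Cdk4 A_55_P2166639: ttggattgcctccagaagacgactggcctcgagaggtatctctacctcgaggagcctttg
Ccnd2 A_52_P53906: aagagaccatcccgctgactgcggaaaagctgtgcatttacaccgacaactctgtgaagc
Ccne1 A_66_P125327: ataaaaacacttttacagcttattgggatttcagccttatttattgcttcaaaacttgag

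The study describes more than 1 siRNA against Fxr1, and the labels do not say which was used for the arrays. The one against exon 14, which is 24 bases long, is shown here. The study describes it first under the name siFxr1, which it also uses for the arrays. It brings in the other siRNA later, to repeat PCR measurements.
siFxr1 exon 14: gcaauccauacagcuuacuugaua
Fxr1 itself was lower in both siFxr1 arrays. Its brighter probe (A_51_P372463) had a normalized log2 signal of 13.85 and 13.71 in siControl of experiments 1 and 2. In siFxr1 it was 10.15 and 10.77, a difference of -3.31 (SE 0.29, n = 2 per condition). The adjusted p of this probe in the limma fit of all probes was 0.950, so the fit did not call the targeted gene by it. The normalized log2 signal used throughout is the background-corrected intensity on a log2 scale after quantile normalization of the 4 arrays, so a difference of 1 is a factor of 2. Between 45.4% and 52.9% of the probes of an array were well above background by the scanner software's mark, and 0 spots were saturated. Precision is limited by the number of arrays: an exact two-sided permutation test of 2 arrays against 2 cannot go below p = 0.333. Unless stated, the SE of a difference between conditions comes from a fit without the experiment. Such a fit counts the difference between experiments as spread.

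Among the 10 genes, Cdk15 had the largest difference, with a signal 4.73-fold lower in siFxr1 and nearly the same difference in both experiments. All 3 probes of Cdk4 were lower in siFxr1 in both experiments, by differences between -0.54 and -0.60. Ccnd2 was higher in both siFxr1 arrays at a signal close to background, with a difference that ranged from 0.39 to 1.16 with the processing. The other G1 genes had small differences or went opposite ways in the 2 experiments. In the fit of all probes with limma, 0 of the 14 probes and 0 of the 55681 probes (0%) had a B value above 0, the log odds of a change that the study's methods used, or a Benjamini-Hochberg adjusted p under 0.05. At an unadjusted p under 0.05, limma listed 2 of the 14 probes, 1 of Cdk15 and 1 of Cdk4, and 2764 of all probes (4.96%). With the experiment as a block it again called 0 of 55681 (0%) and listed 2 of the 14, those of Cdk15 and Ccnd2, at an unadjusted p under 0.05, against 8.85% of all probes.

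A simpler count asks whether the groups overlap. Of the 14 probes, 13 passed the background mark in both siControl or both siFxr1 arrays, the exception being Ccne2. Both siFxr1 arrays lay below both siControl arrays for 3 of these 13 probes, 1 of Cdk15 and 2 of Cdk4, while 14.7% of all 25540 such probes did so. Both siFxr1 arrays also lay above both siControl arrays for the probe of Ccnd2 (15.9% of all such probes did so), but this probe passed the mark only through its siFxr1 arrays, so it is not counted. Over the 12 member probes well above background on all 4 arrays, a restriction chosen after the values were seen, 3 were lower without overlap and 0 were higher, against 14.5% and 15.3% of all 23500 such probes. The lower ones rest on 2 genes, and the Cdk4 probes share a transcript. A difference of at least 2-fold in the same direction in both experiments was found for 1 of the 13, lower, again Cdk15 (1.71% of all), and for 0 of the 13, higher (1.94% of all). The array files hold total RNA of whole cultures, in which fewer cells that express a gene and less RNA of that gene per cell cannot be told apart.

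**Figure D1:**
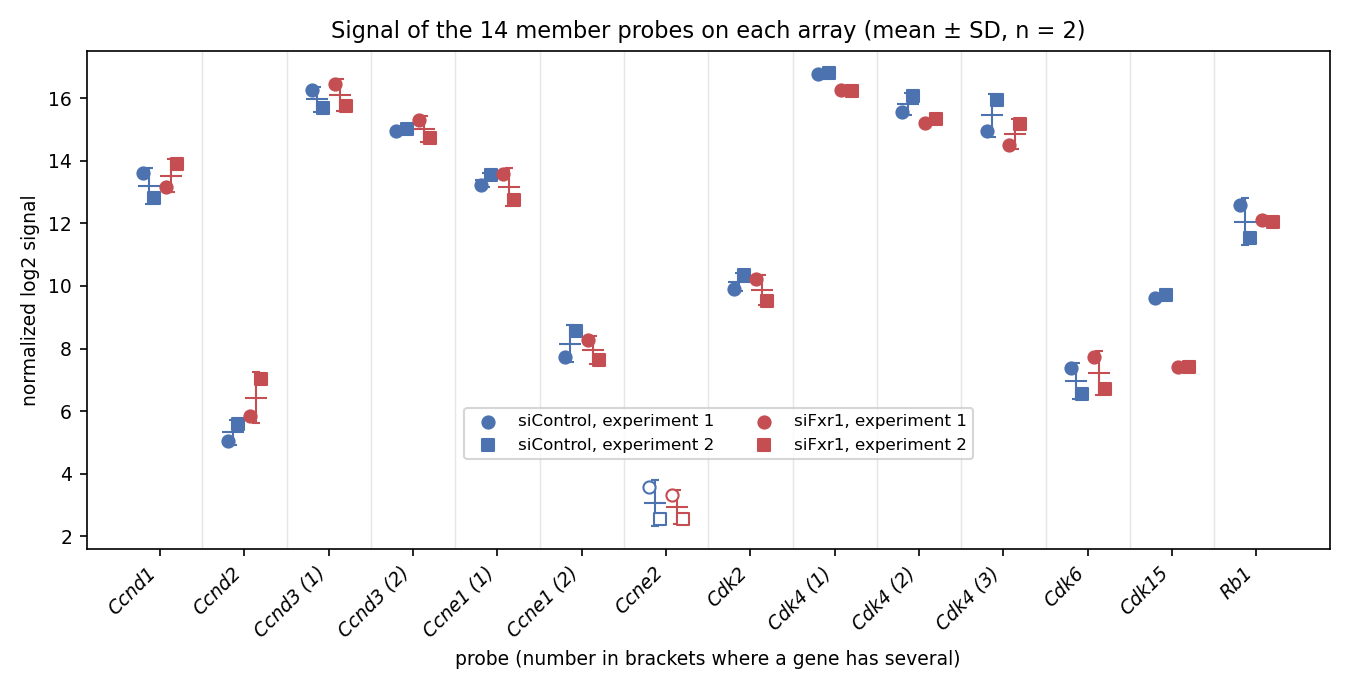
Normalized log2 signal (vertical axis) of each of the 14 member probes (horizontal axis) on the 4 arrays, with blue for siControl, red for siFxr1, circles for experiment 1 and squares for experiment 2; bars give the mean ± SD (n = 2) and open symbols mark a probe not well above background on any array. Cdk15 has 2 tight pairs of points far apart, 9.60 and 9.71 in siControl against 7.40 and 7.43 in siFxr1, while most other probes have overlapping pairs.

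The D cyclins are the sensors of growth factors in G1. Ccnd1, which encodes cyclin D1, the D cyclin most often linked to mitogen signalling, was read by 1 probe (A_66_P111562 at chr7:152116202-152116261). Its normalized log2 signal in siControl was 13.60 in experiment 1 and 12.80 in experiment 2, and in siFxr1 it was 13.16 and 13.89. The highest and the lowest value both came from experiment 2, and the groups overlapped. The difference siFxr1 minus siControl was -0.44 in experiment 1 and 1.09 in experiment 2, and the mean difference was 0.33 (SE 0.45, limma adjusted p = 0.975).

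Ccnd2 encodes cyclin D2, which can replace cyclin D1 in many tissues. Its signal was 5.05 and 5.59 in siControl and 5.85 and 7.01 in siFxr1. The groups did not overlap, and the siFxr1 array was higher in both experiments, by 0.80 and 1.42. The mean difference was 1.11 (SE 0.52, limma adjusted p = 0.975, and 0.535 with the experiment as a block). The probe was well above background on 1 of 2 siControl arrays and on 2 of 2 siFxr1 arrays, and the size of its difference depended on the background correction. It was 0.43 with the normexp correction, 0.41 with none and 0.39 in the authors' normalized table.

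Cyclin D3, encoded by Ccnd3, accumulates during muscle differentiation and is kept in post-mitotic myotubes. It was read by 2 probes for different reference transcripts. The first (A_55_P2041075 at chr17:47736579-47736638) had a signal of 16.25 and 15.69 in siControl and of 16.47 and 15.74 in siFxr1, and the second (A_51_P238448 at chr17:47736267-47736326) of 14.97 and 15.01 in siControl and of 15.31 and 14.72 in siFxr1. Their mean differences were 0.14 (SE 0.39) and 0.02 (SE 0.27), both within the spread between the arrays of a condition. The first probe was lower in experiment 2 than in experiment 1 in both conditions, and for it the experiments lay further apart than the conditions.

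The E cyclins act later in G1. Ccne1 encodes cyclin E1, the partner of Cdk2 at the entry into S phase, and was read by 2 probes with 2613 bases between them on the genome. The brighter one (A_51_P408946) had a signal of 13.23 and 13.54 in siControl and of 13.59 and 12.74 in siFxr1. The other (A_66_P125327), whose sequence is printed above, had 7.75 and 8.57 in siControl and 8.28 and 7.64 in siFxr1. Both probes gave the same picture: siFxr1 was the higher array in experiment 1, with differences of 0.36 and 0.53, and the lower one in experiment 2, with differences of -0.80 and -0.93. Their mean differences were -0.22 (SE 0.38) and -0.20 (SE 0.43).

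Ccne2, which encodes cyclin E2, was read by 1 probe (A_65_P10671 at chr4:11131423-11131482) with a GC content of 15%. The probe was not well above background on any of the 4 arrays, and no fold is given.

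The kinases of G1 bind these cyclins. Cdk2 (A_55_P2011852 at chr10:128135658-128135717), the partner of the E cyclins, had a signal of 9.92 and 10.34 in siControl and of 10.22 and 9.53 in siFxr1. As for Ccne1, its difference had opposite signs in the experiments, 0.30 in the first and -0.81 in the second. The mean difference was -0.26 (SE 0.35, limma adjusted p = 0.975).

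Cdk4, a kinase that the D cyclins activate, was read by 3 probes that share no stretch longer than 6 bases. The probe A_55_P2163143 (chr10:126504279-126504338) had a signal of 16.78 and 16.79 in siControl and of 16.25 and 16.24 in siFxr1. The values within each condition almost coincided, and siFxr1 was the lower array in both experiments, with differences of -0.53 and -0.55. The mean difference was -0.54 (SE 0.15), with an unadjusted p of 0.0299 and an adjusted p of 0.967 in limma. The groups of the second probe, A_55_P1998188 (chr10:126504174-126504233), did not overlap either, at 15.57 and 16.07 in siControl against 15.22 and 15.33 in siFxr1. Its mean difference was -0.55 (SE 0.25). The third, A_55_P2166639, had 14.96 and 15.94 in siControl and 14.52 and 15.18 in siFxr1. Here siFxr1 was lower within each experiment, with differences of -0.44 and -0.76, but the siFxr1 array of experiment 2 lay above the siControl array of experiment 1, so the groups overlapped. Its mean difference was -0.60 (SE 0.49, and 0.21 with the experiment as a block). Without siControl of experiment 2 this difference was -0.11 and without siControl of experiment 1 it was -1.09. That of A_55_P2163143 stayed between -0.54 and -0.53 when any 1 array was left out. A fit with 1 array left out, here and below, leaves the experiments unbalanced between conditions. It therefore also holds the difference between experiments, which was 0.82 for A_55_P2166639 and 0.002 for A_55_P2163143.

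A further probe, A_55_P1998186, carries an Ensembl transcript as its gene name and is described by the array as Cdk4, so the rule did not take it. It covers 53 of the 60 bases of A_55_P2163143 and is no separate reading. Its signal was 15.92 and 16.03 in siControl and 15.49 and 15.42 in siFxr1, a difference of -0.52 (SE 0.16).

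Cdk6 (A_55_P2079630 at chr5:3522106-3522165), the second kinase that D cyclins activate, had a signal of 7.37 and 6.55 in siControl and of 7.73 and 6.71 in siFxr1. Both arrays of experiment 1 were higher than both arrays of experiment 2, and the conditions overlapped. The difference between conditions was 0.26 (SE 0.53, and 0.20 with the experiment as a block). It was 0.36 in experiment 1 and 0.17 in experiment 2.

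Rb1, the pocket protein that the G1 kinases inactivate, was read by 1 probe (A_51_P136888 at chr14:73595408-73595467) printed at 10 places on each array. Its signal was 12.58 and 11.53 in siControl and 12.11 and 12.04 in siFxr1. The SD between its spots within an array was between 0.05 and 0.09 over 9 or 10 spots, against a difference of -1.06 from the first to the second siControl array. The difference siFxr1 minus siControl was -0.47 in experiment 1 and 0.51 in experiment 2, the same signs as for Ccnd1, and the mean difference was 0.02 (SE 0.44, limma adjusted p = 0.998).

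Cdk15, once called Pftk2, belongs with Cdk14 to the PFTAIRE kinases, which bind cyclin Y. Its function is much less studied than that of the other kinases here. The probe A_55_P2167092 had a signal of 9.60 and 9.71 in siControl and of 7.40 and 7.43 in siFxr1, and it was well above background on all 4 arrays. The values of a condition were 0.11 apart or less, and the 2 conditions were far from overlapping. The difference was -2.20 in experiment 1 and -2.28 in experiment 2. The mean difference was -2.24 (SE 0.15), a factor of 4.73, with an unadjusted p of 4.3e-04 and an adjusted p of 0.950 in limma, and an adjusted p of 0.535 with the experiment as a block. It was the 46th lowest difference among the 25540 probes well above background.

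The call on Cdk15 depended on the model. With the experiment as a block and dim probes left out of the fit, its adjusted p was 0.0304 and 1.39% of those probes were called. The block with normexp correction, with no background correction and with the median minus local background also called it, beside 0.736%, 0.724% and 0.62% of all probes. With normexp and with no background correction, the call rested on B above 0 only. The lowest limma adjusted p of any member was 0.0825 and 0.0997 there. Taking the 4 ratios of a siFxr1 over a siControl array as observations called the probe of Cdk15 and 1 probe of Cdk4 (A_55_P2163143), beside 1.99% of all probes, although these ratios share arrays and are not independent. The difference itself lay between -2.24 and -1.89 under the 13 other settings that kept all arrays, and between -2.29 and -2.19 with any 1 array left out.

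The array holds another probe that it describes as Cdk15 but names by an Ensembl transcript, A_55_P2006862 at chr1:59409207-59409266. It lies 21365 bases downstream of the first and shares no run longer than 6 bases with it. This probe was outside the rule and was looked up after the values of the first were known. Its signal was 9.38 and 8.65 in siControl and 6.88 and 6.06 in siFxr1, well above background on all 4 arrays. The groups did not overlap, and the difference was -2.50 in the first experiment and -2.58 in the second. The mean difference was -2.54 (SE 0.45, limma adjusted p = 0.950), a factor of 5.82. It lay between -2.54 and -1.83 under the 13 other settings that kept all arrays, and between -2.95 and -2.13 with any 1 array left out. Both probes were read on the same 4 RNA samples, so the second adds a separate oligonucleotide and no further replicate.

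**Figure D2:**
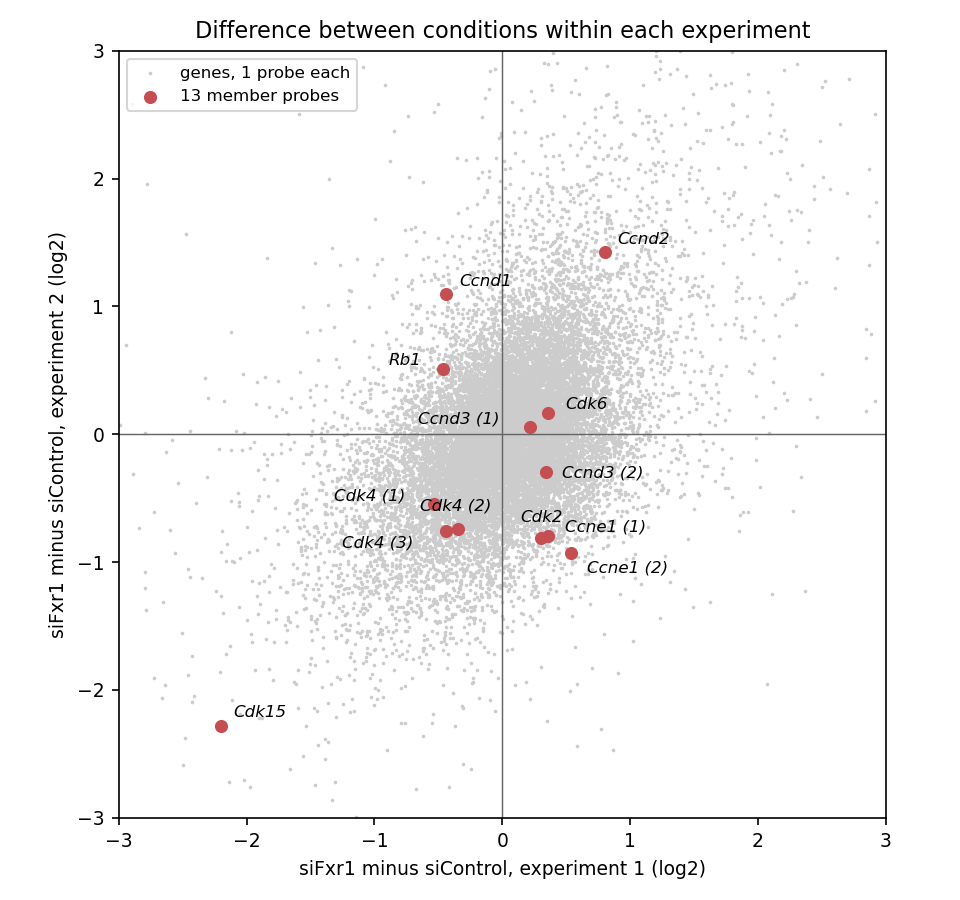
Difference siFxr1 minus siControl in experiment 1 (horizontal axis, log2) against that in experiment 2 (vertical axis, log2) for the 13 member probes well above background (red) and for 1 probe of each of the 19158 genes with such a probe (grey, of which 156 lie outside the axes). Cdk15 lies on the diagonal at -2.20 and -2.28, the Cdk4 probes lie lower left of the centre, and Ccne1 and Cdk2 lie opposite Ccnd1 and Rb1.

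The labels also allow a comparison of the 2 experiments, because each experiment holds both conditions. In 6 of the 13 probes (46.2%) the siFxr1 array was higher in one experiment and lower in the other, against 35.8% of all probes well above background. The probes of Ccne1 and Cdk2, which are partners, had positive differences in the first experiment and negative ones in the second, and those of Ccnd1 and Rb1 were the reverse. The second probe of Ccnd3 had the same signs as Ccne1. A test of whether the effect of siFxr1 differs between experiments would need more than 1 array for each pair of condition and experiment, and it was not tested.

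The mean difference between experiments was larger than that between conditions for 6 of the 13 probes (46.2%). This was less frequent than among all probes well above background (63.2%). Cdk6 was lower in experiment 2 in both conditions, with a difference of -0.82 in siControl and -1.02 in siFxr1. Ccnd2 was higher in experiment 2 in both, by 0.54 and 1.16, as was the Cdk4 probe A_55_P2166639, by 0.98 and 0.67. The first probe of Ccnd3 was lower in both, with differences of -0.56 and -0.72. The Cdk15 probe A_55_P2167092 was nearly level between experiments, at 0.07 (SE 0.19), and so was the Cdk4 probe A_55_P2163143, at 0.002 (SE 0.19). The other probe described as Cdk15, A_55_P2006862, was lower in experiment 2, with differences of -0.73 in siControl and -0.82 in siFxr1. In the limma fit with condition as a covariate, 0 of the 14 and 0 of all 55681 probes (0%) differed between experiments at an adjusted p under 0.05, while 5 of the 14 and 20.1% of all had an unadjusted p under 0.05. When only probes well above background were tested, 17% of them were called, and among the members the probe of Cdk6, lower in experiment 2. Experiment and slide cannot be told apart.

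**Figure D3:**
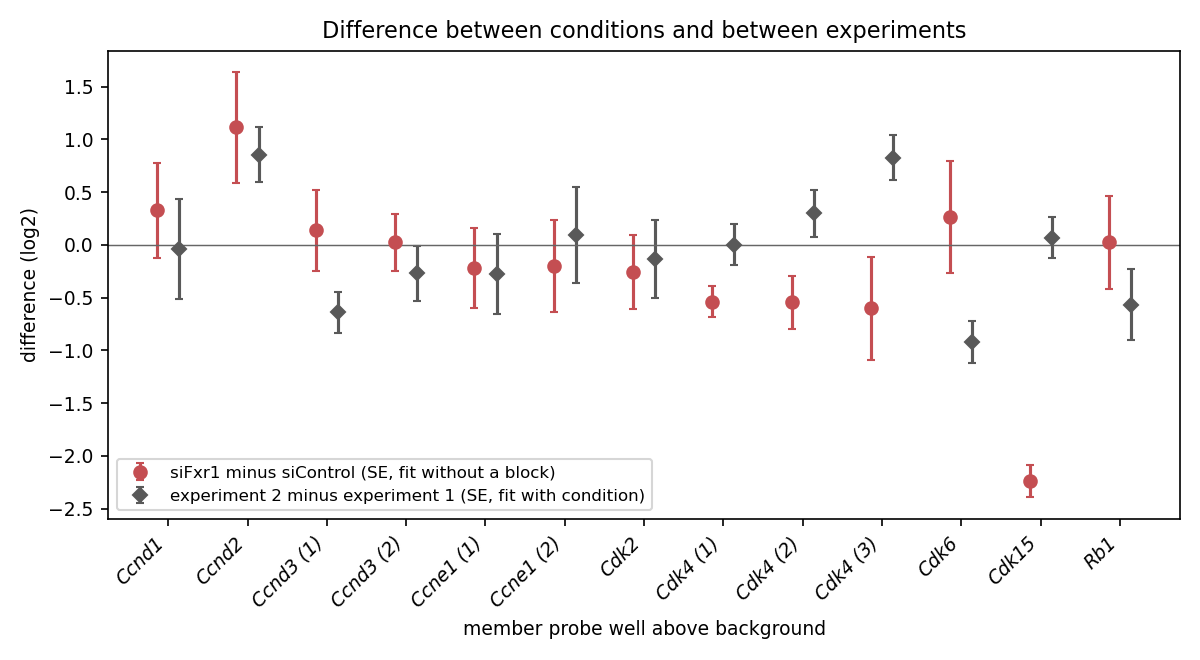
Mean difference (vertical axis, log2) between conditions (red circles, siFxr1 minus siControl) and between experiments (grey diamonds, experiment 2 minus experiment 1) for the 13 member probes well above background (horizontal axis), with bars of 1 SE from limma. The Cdk15 probe drawn, A_55_P2167092, has a difference of -2.24 between conditions and of 0.07 between experiments, and for Cdk6 the difference between experiments is the larger.

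The inhibitors that hold these kinases in check were measured beside them, and 5 of 7 had a probe well above background, Cdkn2a and Cdkn2b being the exceptions. Their median difference was -0.33, against 0.03 over all 19158 genes. Cdkn1a, which encodes p21, an inhibitor of the G1 kinases, had 3 probes. The brightest (A_51_P363947) had a signal of 15.44 and 13.33 in siControl and of 15.52 and 15.04 in siFxr1, so its difference was 0.08 in experiment 1 and 1.71 in experiment 2, with a mean of 0.90 (SE 0.86). Without siControl of experiment 2 its difference was -0.16, in a fit unbalanced between experiments. The probe of another transcript (A_55_P1986282) had 6.33 and 6.73 in siControl and 9.19 and 10.62 in siFxr1. Its groups did not overlap, and the mean difference was 3.37 (SE 0.60, limma adjusted p = 0.950). This difference lay between 2.45 and 3.38 under the 13 other settings that kept all arrays. The siControl signal of the probe was low, though well above background on all 4 arrays. The third probe differed by 0.60 in experiment 1 and 0.67 in experiment 2, with a mean of 0.64.

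Cdkn1c, which encodes the inhibitor p57, had a difference of 2.46 in experiment 1 and of 0.13 in experiment 2, with a mean of 1.30 (SE 0.75) that lay between 0.40 and 2.19 with any 1 array left out. Cdkn1b, which encodes p27, was lower in siFxr1 in both experiments with no overlap, at 13.95 and 13.95 in siControl against 13.42 and 13.09 in siFxr1, a difference of -0.70 (SE 0.20). Cdkn2c and Cdkn2d, which encode inhibitors of Cdk4 and Cdk6, had differences of -0.35 and -0.33. Both siFxr1 arrays were below both siControl arrays for 2 of the 5 inhibitors and above for 1, beside 14.2% and 16.5% of all genes, and 0 passed the test.

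Of 23 other genes listed for the Rb-E2F pathway, 22 were well above background, and their median difference was -0.09. Rbl2, which encodes the pocket protein p130, had a signal of 9.65 and 10.81 in siControl and of 8.92 and 9.65 in siFxr1. Its mean difference was -0.95 (SE 0.56), and it was -0.73 in experiment 1 and -1.16 in experiment 2. E2f7, an atypical E2F that represses its targets, had 12.02 and 11.90 in siControl and 11.39 and 10.67 in siFxr1, a difference of -0.93 (SE 0.32). E2f6 and E2f8, also repressive members of the family, had differences of 0.59 and 0.55, and Tfdp2, a dimer partner of E2F proteins, of 0.51. In all, 4 of the 22 (18.2%) were lower without overlap and 3 (13.6%) were higher, against 14.2% and 16.5% of all genes. None of the 22 passed the test.

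The relatives of Cdk15 had differences between -0.66 and 0.75. All 7 genes of that list, which holds the PCTAIRE and PFTAIRE kinases, Cdk5 and the cyclin Y genes, were well above background, and their median difference was 0.16. Cdk17 had a difference of 0.75 (SE 0.24), Cdk5, the neuronal kinase, of -0.42 (SE 0.15), Cdk18 of 0.23 and Ccnyl1 of 0.19. Cdk16 had a difference of -0.66 (SE 0.46), which was close to 0 in experiment 1 and -1.31 in experiment 2, and lay between -1.20 and -0.11 with any 1 array left out. Cdk14, the other PFTAIRE kinase, had a signal of 12.32 and 12.48 in siControl and of 12.66 and 12.47 in siFxr1, which overlapped.

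Of 21 other cyclins and kinases, all were well above background, with a median difference of -0.01. Without overlap, 5 (23.8%) were lower and 2 (9.52%) higher, against 14.2% and 16.5% of all genes. The largest differences were 1.10 for Ccno, 0.86 for Ccng1, which encodes cyclin G1, a p53 target, -0.72 for Ccni, -0.69 for Cdk13 and -0.63 for Cdk10. None of the 21 passed the test.

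Genes that cells use from S phase to mitosis follow the G1 step. Of 15 such genes well above background, 6 were lower in siFxr1 without overlap and 0 were higher, beside 14.2% and 16.5% of all genes. Their median difference was -0.33, and it was -0.09 in experiment 1 and -0.76 in experiment 2. Mki67, the proliferation marker, had a signal of 13.50 and 15.61 in siControl and of 12.98 and 14.47 in siFxr1, which overlapped, with a mean difference of -0.83 (SE 1.02). Plk1, a mitotic kinase, had a difference of -0.74, and Mcm7, Mcm3 and Mcm5, subunits of the replicative helicase, of -0.70, -0.69 and -0.55. With any 1 array left out, the difference of Mki67 lay between -1.88 and 0.23 and that of Mcm5 between -1.12 and 0.01. Such a fit leaves the experiments unbalanced between conditions, so its range also holds the difference between experiments. Within experiments 1 and 2, the difference was -0.52 and -1.14 for Mki67 and -0.09 and -1.02 for Mcm5. None of the 15 passed the test.

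**Figure D4:**
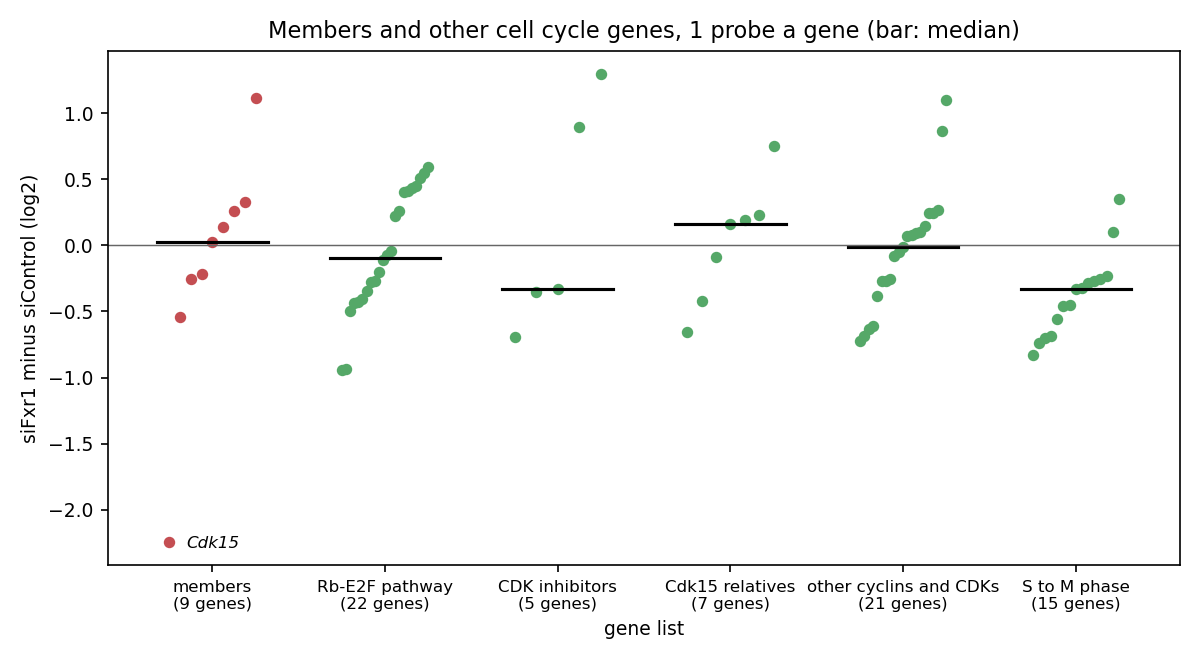
Difference siFxr1 minus siControl (vertical axis, log2) of single genes, 1 probe each, in the members and in 5 lists of other cell cycle genes (horizontal axis, with the number of genes well above background); points are ordered by value within a list and bars mark medians. Cdk15 at -2.24 lies below every other gene drawn, and the median of the S to M phase list, like that of the CDK inhibitors, is -0.33.

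The state of the cultures was read from marker genes. Of 6 myoblast markers, 5 were well above background, among them Myod1 and Des, and Myf5 was not on any array. The summed signal of all 6, on a linear scale, was 92980 to 125900 in siControl and 97980 to 122500 in siFxr1. All 10 markers of differentiated myocytes were well above background, and all 10 were lower in experiment 2 than in experiment 1 in both conditions, with a median difference of -2.15. Their sum was 84140 to 404500 in siControl and 75600 to 336700 in siFxr1. Their part in the differences of Ccnd3, Cdk6, Rb1 and Ccnd1 between experiments was not tested. For the Cdk15 probe A_55_P2167092 and the Cdk4 probe A_55_P2163143, the difference between conditions was nearly the same in experiment 1 as in experiment 2. It was -0.35 and -0.74 for the Cdk4 probe A_55_P1998188, and -0.44 and -0.76 for A_55_P2166639. The part of the markers in these differences was not tested. Of 12 markers of other cell types, 5 had a probe well above background in both arrays of a condition: Fabp4, Kdr, Cdh5, Pecam1 and Cd3e. Fabp4, a fat cell gene, had a signal of 7.93 and 8.46 in siControl and of 8.36 and 10.13 in siFxr1, a difference of 1.05 (SE 0.74), and Cd3e, a T cell gene, differed by 0.002. The summed signal of all 12 was 4634 to 4965 in siControl and 5622 to 6389 in siFxr1. The brightest of the 12, which weighs most in this sum, was Kdr. Its normalized log2 signal was 11.58 and 11.69 in siControl and 12.07 and 11.79 in siFxr1. Ptprc, Epcam, Cdh1, Adipoq and Plin1, other markers of blood, epithelial and fat cells, were not well above background on any array. Cd68 and Krt5 were well above background on 2 arrays each. The higher sum in siFxr1 had the direction of Ccnd2 and the opposite of Cdk15, and its part in their differences was not tested.

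Finally, the genes whose 4 values lay nearest to those of Cdk15, after the mean of each gene was subtracted, were looked up over 19092 probes of 14998 named genes well above background on all arrays. The nearest was Zc3h7b, with a root mean square difference of 0.22, followed by Gm8878, D030063E12, Chmp5 and Ndrg1, at up to 0.27. Zc3h7b, a zinc finger gene, had a signal of 11.29 and 11.25 in siControl and of 9.48 and 9.43 in siFxr1. Its difference was -1.82, and those of the other 4 genes were between -2.23 and -1.72. With 4 values a gene, such likeness says only that these genes were lower in siFxr1 in both experiments by similar amounts.

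**Figure D5:**
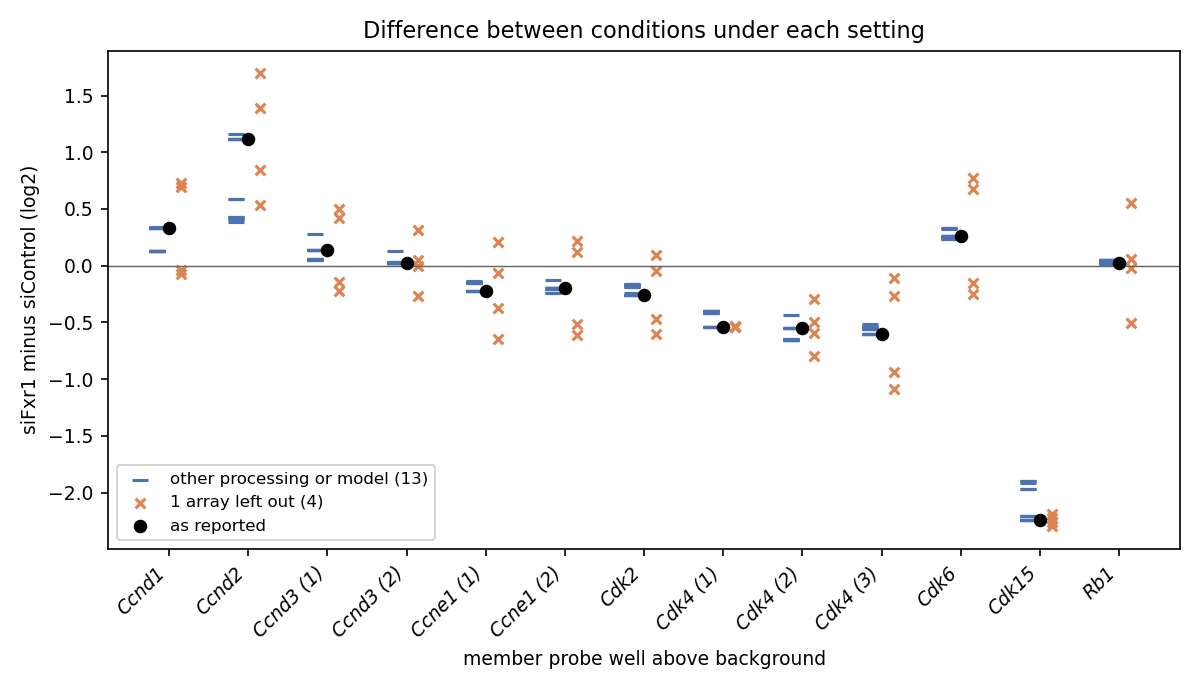
Difference siFxr1 minus siControl (vertical axis, log2) of the 13 member probes well above background (horizontal axis) as reported (black), under 13 other settings of processing and model (blue dashes) and with 1 of the 4 arrays left out (orange crosses). Cdk15 and all 3 Cdk4 probes stay below 0 under every setting drawn. Ccnd2 stays above 0, but its probe passed the background mark only through its siFxr1 arrays. The others cross 0 when an array is left out, which leaves the experiments unbalanced between conditions.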

How the data were processed

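The authors deposited spot intensities from Agilent Feature Extraction 10.7.3.1, background-corrected within arrays, and a table of normalized intensities, used as an alternative. The methods name limma, quantile normalization and B above 0. Here, log2 intensities of non-control spots were quantile-normalized, outlier spots (145 to 177 an array) set to missing and spots of a probe averaged. All probes were fitted with limma 3.58.1 in R 4.3.3, with condition as the only term and an expected changed share of 0.01. A probe was well above background if at least 0.5 of its spots were marked so. Lists use the brightest probe of a gene and name up to 5 genes by size of difference. Replicate numbers are experiments sharing a slide by the labels, and same-numbered samples deviated together from their condition means (correlation 0.714), so they pair the samples. Members and lists were chosen with earlier results of these data known. Alternatives were other scalings and background corrections (normexp offset 50), filters, the block, ratios, a variance trend and arrays left out. Replicates beyond the experiment number are undescribed, so p-values measure the spread between these samples, which may be technical.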

Additional observations from a re-analysis of the deposited data

How the results depend on the processing

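With the experiment as a replicate block, 0 probes were called. The block with only probes well above background called 354 probes and 1 member probe, with normexp 410 and 1, with no background correction 403 and 1, with the median minus local background 345 and 1, and the 4 ratios called 1107 and 2. Leaving out any array called 0 to 0. Of 934 probes at least 2-fold apart in both experiments, 350 were left with normexp, 313 with no background correction, 536 with the median minus local background and 311 in the authors' table. It was 1418 with no filter on dim probes, which was chosen after the data were seen, and 2881 at 1.5-fold. Probes called between experiments, 0 as reported, were 5846 with 75th percentile scaling, 4496 with normexp, 4197 with no background correction, 3686 with the median minus local background, 5450 in the authors' table and 4342 with the filter. The causes were not tested. Member probes higher without overlap went from 1 to 0 with only probes well above background on all 4 arrays, also chosen after the data were seen, which leaves out Ccnd2. No member changed direction except when an array was left out, which gave -0.073 to 0.73 for Ccnd1, -0.22 to 0.50 and -0.27 to 0.32 for Ccnd3, -0.64 to 0.21 and -0.61 to 0.22 for Ccne1, -0.65 to 0.38 for Ccne2, -0.60 to 0.092 for Cdk2, -0.25 to 0.77 for Cdk6 and -0.51 to 0.55 for Rb1. Among other genes it gave -0.16 to 1.95 and -0.033 to 1.31 for Cdkn1a, -0.69 to 0.032 for Cdkn2d, -0.068 to 0.52 for Cdk18, -0.037 to 0.42 for Ccnyl1, -1.88 to 0.23 for Mki67 and -1.12 to 0.010 for Mcm5. The difference of Ccnd2 was 0.53 to 1.69. The fits with an array left out leave the experiments unbalanced between conditions, so they also hold the difference between experiments. Signal near background limits Ccnd2, Cdk6 and Ccne2. In siFxr1 the Cdk15 probe A_55_P2167092 (7.40 and 7.43) lay at the level of Cdk6. A_55_P2006862 (6.88 and 6.06) lay at that level or below it. With the processing, their differences ranged from -2.24 to -1.89 and from -2.54 to -1.83, so the size of the fold is limited in the same way.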
